A study of Mus musculus with 8 samples.

Results

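The enzymes that make phosphatidylserine and phosphatidylethanolamine were followed as 10 genes, chosen by symbol: Ptdss1, Ptdss2, Pisd, Pcyt2, Etnk1, Selenoi, Cept1, Pcyt1a, Chpt1 and Chka. Each was read from 1 transcript cluster of a microarray, out of 19505 genes with a symbol. Of the 10, 9 were among the 10871 genes bright enough to be tested, and Chka was not. The cells came from bone marrow of C57BL6/J mice and were kept in 4 cultures, sampled on days 6 and 3 after treatment, with 1 array for each culture and day. The PSS1-LMS culture received 50 ng/ml M-CSF and 100 ng/ml RANKL, and 1 day later a retrovirus for mutant PSS1. The PSS1-WT culture received the same factors and a retrovirus for wild-type PSS1. The M-CSF+RANKL culture received both factors, and the M-CSF culture M-CSF alone at 50 ng/ml. M-CSF lets bone marrow cells survive and become macrophages, and with RANKL they become osteoclasts, the multinucleated cells that resorb bone. PSS1 is the protein encoded by Ptdss1. The labels do not spell out LMS, the mutation, the species of the insert, or whether cultures without an insert were given an empty vector. In people, mutations of PTDSS1 cause Lenz-Majewski syndrome, in which bones are abnormally dense.

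Phosphatidylserine is made in the endoplasmic reticulum by base exchange, in which PSS1 replaces the head group of phosphatidylcholine with serine and PSS2, encoded by Ptdss2, does so with phosphatidylethanolamine. Pisd then decarboxylates phosphatidylserine in mitochondria to phosphatidylethanolamine, which a second route, the CDP-ethanolamine pathway, builds from ethanolamine in the endoplasmic reticulum. The CDP-choline pathway supplies phosphatidylcholine, the substrate of PSS1, and phosphatidylserine shown on the surface of osteoclast precursors takes part in their fusion.

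All values below are log2 signals of the deposited table, and a difference of 1 is a 2-fold difference. Probe affinity sets part of a signal, so levels were compared between arrays and not between genes. The array carries 23 probe sets for background, without a target in mouse RNA, and the brightest of them lay between 5.54 and 7.13 depending on the array. All 9 tested members exceeded it on all 8 arrays. The osteoclast markers separated the cultures as labelled: their summed linear signal, over 10 genes, was 3121330 to 3535710 on the 6 arrays with RANKL and 473 to 7329 on the 2 M-CSF arrays.

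**Figure D1:**
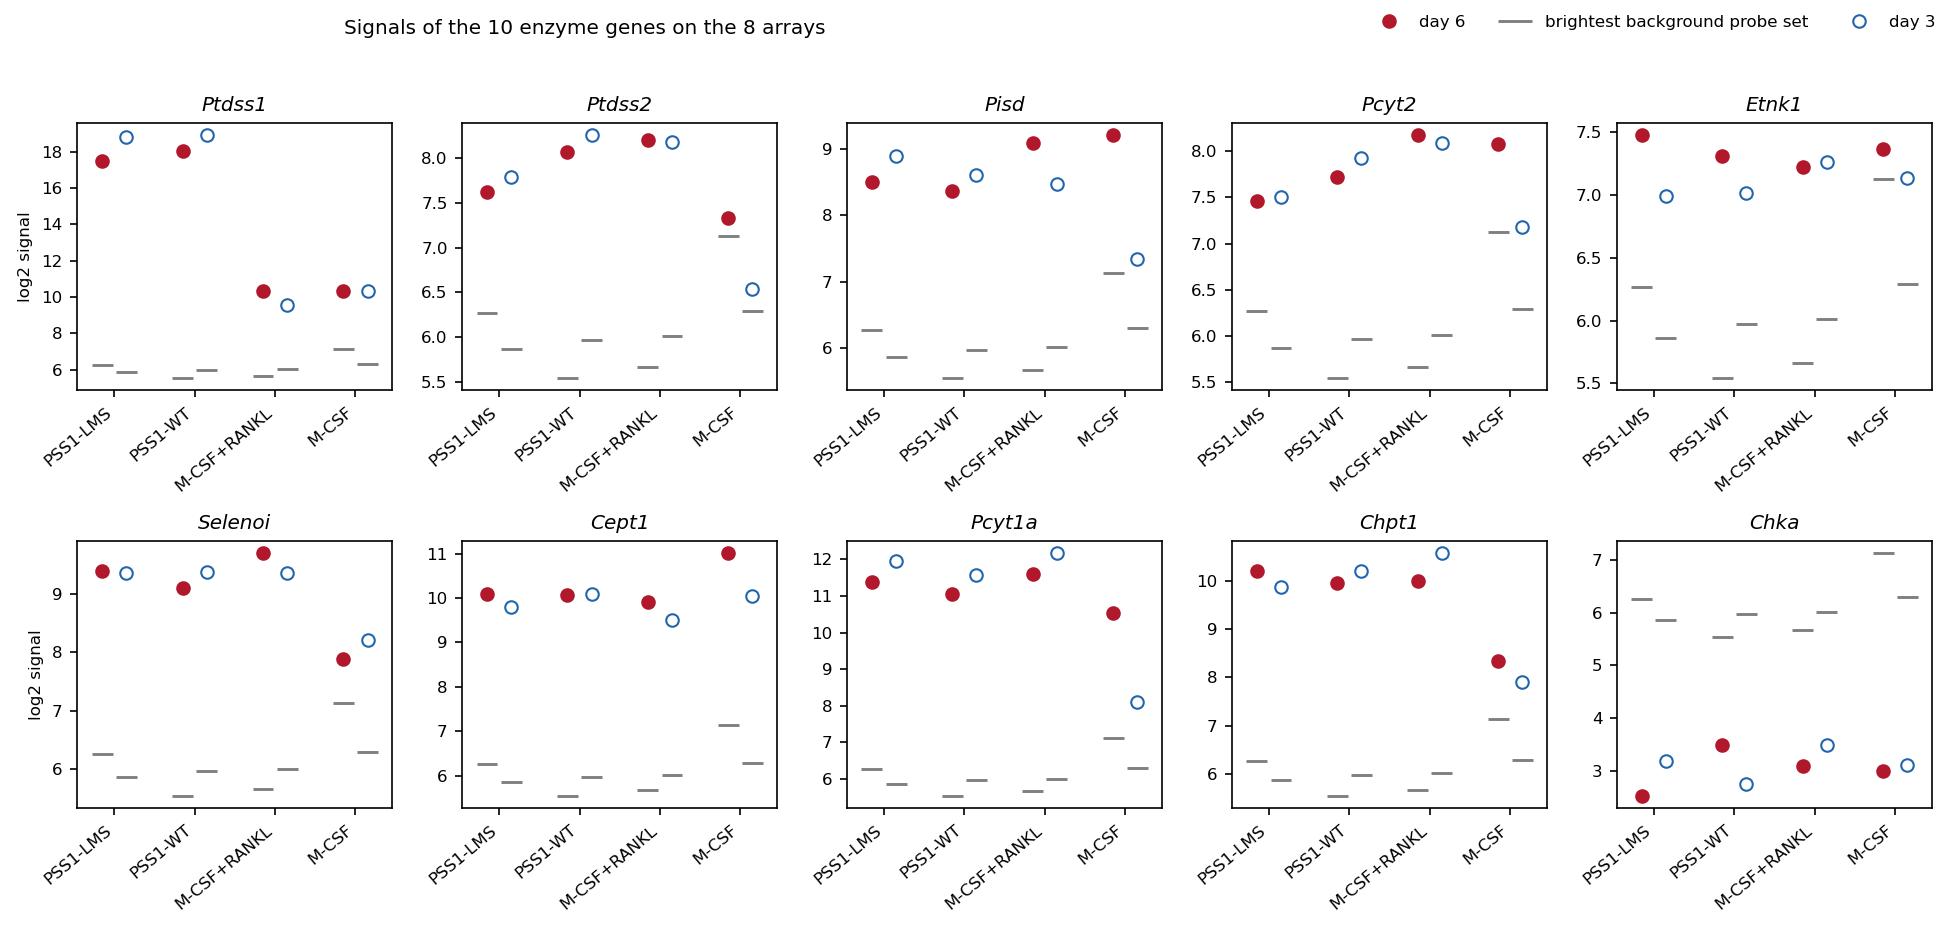
Each panel plots 1 enzyme gene as its log2 signal (vertical axis, own range per panel) in the PSS1-LMS, PSS1-WT, M-CSF+RANKL and M-CSF cultures, with filled points for day 6, open points for day 3 and grey bars for the brightest background probe set of that array. Ptdss1 lies at 17.50 or above on the 4 PSS1 arrays, and Ptdss2, Selenoi, Pcyt1a and Chpt1 lie lower on both M-CSF arrays than on any array with RANKL.

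The first question was how the enzymes differed between cells that received RANKL and cells kept in M-CSF alone. With RANKL, 4 of the 9 tested members rose and none fell (limma, adjusted p under 0.05), where 14.1% of all tested genes rose and 12.4% fell. They were Ptdss2, Selenoi, Pcyt1a and Chpt1, which stand at separate steps: base exchange, the last step of the CDP-ethanolamine pathway, and the middle and last steps of the CDP-choline pathway. The median difference of the 9 members was 0.51, against 0.03 over all tested genes. The tested genes include some within background on every array, while the 9 members were above it on all 8, so the sets differ in brightness. In bulk cultures, fewer cells of a type and less RNA per cell cannot be told apart.

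Markers of several cell types moved with the same contrast. All 10 osteoclast markers rose, and 10 of 11 macrophage markers fell, with a summed signal of 87125 to 111533 on the arrays with RANKL and 349232 to 1053230 on the M-CSF arrays. With RANKL that sum was mostly the macrophage marker that did not fall, so it understates the falls of the others. Where no low signal was within background, those falls ran from 21.1-fold (Cd14) to 463-fold (Ly86). Of the megakaryocyte and mast cell markers, 1 of 4 tested fell, Pf4, and the others did not pass. Pf4 read 6.00 on day 6 and 7.49 on day 3 in M-CSF+RANKL cells, against 14.81 and 15.03 in M-CSF cells. The list's summed signal was 197 to 332 on the arrays with RANKL and 28826 to 33510 on the M-CSF arrays. On the M-CSF arrays that sum was almost wholly Pf4, so it does not describe the list. The B cell gene Blnk and 2 of 9 neutrophil markers (Mmp8 and Csf3r) also fell. Csf3r was within background on 7 arrays, and Cd163, among the fallen macrophage markers, on every array. Of the tested dendritic cell markers, 3 of 4 rose (Itgax, H2-Aa and H2-Eb1). Both M-CSF signals of Itgax and H2-Eb1 were within background, so no fold is given for them. The part of these cell type differences in the enzyme differences was not tested.

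The 250 bases before the start of the 4 genes that rose are shown because the genes moved together in this contrast. They are RefSeq sequences of build GRCm38.p6 in the direction of transcription: chr7:141131036-141131285 (plus strand) for Ptdss2, chr5:30232331-30232580 (plus) for Selenoi, chr16:32430671-32430920 (plus) for Pcyt1a and chr10:88503971-88504220 (minus) for Chpt1. Of the members, 8 of 10 had such a sequence, and Ptdss1 and Pcyt2 are named only. Capitals mark matches, on either strand, to 6 motifs: AP-1 (TGANTCA), NFAT core (TGGAAA), E-box (CACGTG), ETS core (GGAAGT), sterol regulatory element (TCACNCCAC) and GC box (GGGCGG). A lower-strand match appears as its reverse complement.
Ptdss2: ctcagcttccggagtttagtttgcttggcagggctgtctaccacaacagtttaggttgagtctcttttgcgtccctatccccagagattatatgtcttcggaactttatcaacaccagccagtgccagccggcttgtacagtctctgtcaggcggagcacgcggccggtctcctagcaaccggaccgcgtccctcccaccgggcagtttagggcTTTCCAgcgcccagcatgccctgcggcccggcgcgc
Selenoi: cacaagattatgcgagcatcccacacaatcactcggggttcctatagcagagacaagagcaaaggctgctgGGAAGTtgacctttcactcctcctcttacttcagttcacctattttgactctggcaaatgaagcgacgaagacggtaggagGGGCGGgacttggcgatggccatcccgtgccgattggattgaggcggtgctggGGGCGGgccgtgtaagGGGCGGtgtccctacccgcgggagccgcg
Pcyt1a: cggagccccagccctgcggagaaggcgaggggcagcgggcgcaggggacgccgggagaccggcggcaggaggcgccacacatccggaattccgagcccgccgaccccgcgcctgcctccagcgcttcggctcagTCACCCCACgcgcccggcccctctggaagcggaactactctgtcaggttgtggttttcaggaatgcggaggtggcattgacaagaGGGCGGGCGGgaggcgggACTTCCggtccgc
Chpt1: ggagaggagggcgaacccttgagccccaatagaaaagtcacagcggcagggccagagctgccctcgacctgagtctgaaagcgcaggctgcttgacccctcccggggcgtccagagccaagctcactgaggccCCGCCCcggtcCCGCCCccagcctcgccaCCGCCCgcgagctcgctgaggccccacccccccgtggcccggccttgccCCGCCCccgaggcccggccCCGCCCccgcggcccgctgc
Ptdss2 held 1 NFAT core, a motif in 18.6% of all 32851 promoters of the same length. It lay 36 bases before the start used for this sequence. That start is inside the gene span given below, which begins at 141131267, so the last printed bases overlap the span. Pcyt1a held a sterol regulatory element at 116 bases, which 1.05% of promoters held, 2 GC boxes that overlap each other, and an ETS core at 13 bases. Selenoi held an ETS core at 179 bases and 3 GC boxes, and Chpt1 5 GC boxes. GC boxes occurred in 6 of the 8 member promoters (32.7% of all), ETS cores in 2 (19.7%), and AP-1 and E-box motifs in none (6.75% and 6.02%). For Pcyt1a, which had 3 listed starts, the most upstream was used. A match describes letters only.

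Of the enzymes that handle phosphatidylserine directly, Ptdss2 (chr7:141131267-141156158) rose with RANKL and the other two did not pass. Ptdss2 had signals of 8.20 on day 6 and 8.18 on day 3 in M-CSF+RANKL cells, against 7.33 and 6.53 in M-CSF cells. All 6 arrays with RANKL, at 7.62 to 8.26, lay above both M-CSF arrays. The difference was 1.26 ± 0.34 (SE from limma, 1 array per culture and day; 2.39-fold, adjusted p = 0.0301), with 0.87 on day 6 and 1.65 on day 3. Both M-CSF signals lay only just above the brightest background probe set of their array, at 7.13 on day 6 and 6.29 on day 3.

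Ptdss1 (chr13:66932830-66998401) had signals of 10.36 on day 6 and 9.56 on day 3 in M-CSF+RANKL cells, and 10.33 and 10.31 in M-CSF cells. The cells' own Ptdss1 was thus well above background in both cultures, and the groups overlapped, with the day 3 M-CSF+RANKL array as the low one. The difference was -0.36 (95% interval -1.50 to 0.78, adjusted p = 0.646). Its error also takes in how the signal in the PSS1 cultures changed between days; with only the 4 arrays of the cultures compared, adjusted p was 0.668.

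Pisd (chr5:32736301-32785642) read 9.09 on day 6 and 8.48 on day 3 in M-CSF+RANKL cells, against 9.21 and 7.35 in M-CSF cells. The 2 M-CSF arrays were the highest and the lowest of all 8. The mean difference was 0.51 (interval -0.73 to 1.74, adjusted p = 0.544), made of -0.12 on day 6 and 1.13 on day 3.

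In the CDP-ethanolamine pathway, Etnk1 phosphorylates ethanolamine, Pcyt2 activates it to CDP-ethanolamine, and Selenoi and Cept1 transfer it to diacylglycerol. The selenoprotein gene Selenoi (chr5:30232581-30272430) rose by 1.48 ± 0.31 with RANKL (2.78-fold, adjusted p = 0.0095). It read 9.69 on day 6 and 9.36 on day 3 in M-CSF+RANKL cells, against 7.89 and 8.21 in M-CSF cells. The lowest of the 6 arrays with RANKL was 9.10, so the groups did not overlap.

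Etnk1 (chr6:143166866-143208546) had the narrowest range of the 9, between 6.99 and 7.47 over the 8 arrays. It read 7.22 on day 6 and 7.26 on day 3 in M-CSF+RANKL cells, and 7.36 and 7.14 in M-CSF cells. Its difference was -0.01 (interval -0.68 to 0.67, adjusted p = 0.988).

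Pcyt2 (chr11:120610062-120617947) read 8.17 on day 6 and 8.09 on day 3 in M-CSF+RANKL cells, and 8.08 and 7.18 in M-CSF cells. The day 3 M-CSF array was the lowest of all 8, and on day 6 the cultures differed by 0.09. The mean difference of 0.50 did not pass (interval -0.31 to 1.32, adjusted p = 0.345).

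Cept1 (chr3:106502260-106547802), which accepts CDP-ethanolamine and CDP-choline, was the member with the most negative difference with RANKL. It read 9.91 on day 6 and 9.50 on day 3 in M-CSF+RANKL cells, against 11.01 and 10.06 in M-CSF cells. The day 6 M-CSF array stood above all others, while the day 3 M-CSF array lay within the range of the arrays with RANKL, 9.50 to 10.10. The difference was -0.83 ± 0.33 and did not pass after adjustment (interval -1.59 to -0.07, adjusted p = 0.107).

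In the CDP-choline pathway, Chka phosphorylates choline, Pcyt1a makes CDP-choline, the rate-limiting step, and Chpt1 and Cept1 complete phosphatidylcholine. Pcyt1a (chr16:32430921-32475065) read 11.59 on day 6 and 12.16 on day 3 in M-CSF+RANKL cells, against 10.52 and 8.09 in M-CSF cells. The groups did not overlap, and the day 3 M-CSF array stood far below the rest. Pcyt1a rose by 2.57 ± 0.71 (5.95-fold, adjusted p = 0.0320), by 1.08 on day 6 and 4.07 on day 3.

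Chpt1 (chr10:88469513-88503970) read 9.99 on day 6 and 10.57 on day 3 in M-CSF+RANKL cells, against 8.33 and 7.89 in M-CSF cells. The 6 arrays with RANKL spanned 9.86 to 10.57 and lay above both M-CSF arrays. Chpt1 rose by 2.17 ± 0.35 (4.50-fold, adjusted p = 0.00303), with 1.66 on day 6 and 2.68 on day 3. Chka (chr19:3851585-3894369) stayed between 2.52 and 3.49, under the background of all 8 arrays, so it had no measured level and no test.

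The calls rested on single arrays, and the number of all tested genes that passed moved as well. That number fell without an M-CSF+RANKL or PSS1 array and with only the cultures compared. It rose without an M-CSF array. With the day 3 array of M-CSF+RANKL left out, Selenoi alone passed (adjusted p = 0.0485), and without that of day 6, Chpt1 alone did (0.0190). Without the M-CSF array of day 6, 6 members passed, with Pisd at 1.44 (adjusted p = 0.00443) and Pcyt2 at 0.98 (0.0207) added; without that of day 3, Cept1 passed at -1.19 (0.00736) and Ptdss2 did not (0.0524). Without a PSS1-LMS array 3 members passed (Ptdss2 0.0608), and without a PSS1-WT array 2 (Ptdss2 0.0564, Pcyt1a 0.0545). With only the 4 arrays of the cultures compared, Pcyt1a and Chpt1 passed, and Ptdss2 (0.0927) and Selenoi (0.0512) did not. Over all these alternatives adjusted p ran from 3.10e-05 to 0.0556 for Chpt1, 0.000718 to 0.131 for Selenoi, 4.21e-08 to 0.255 for Pcyt1a and 0.000384 to 0.197 for Ptdss2.

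**Figure D2:**
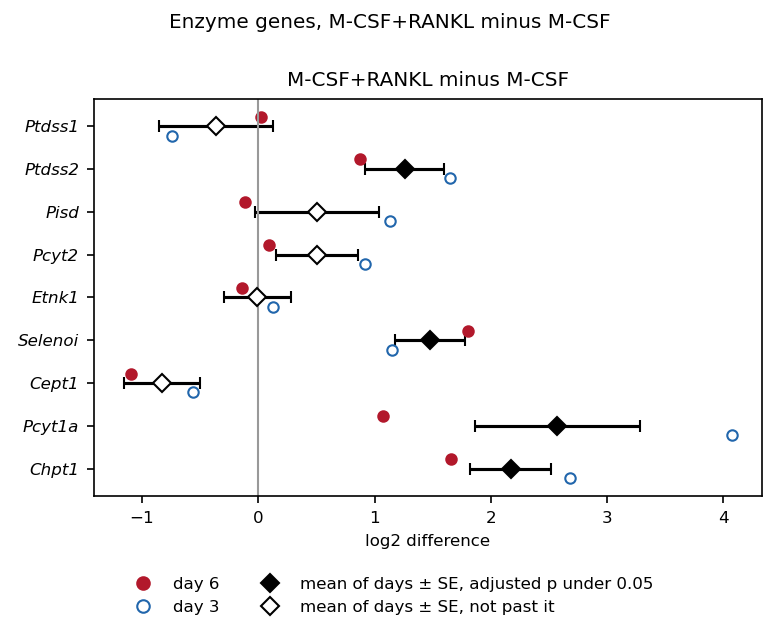
Log2 difference of M-CSF+RANKL minus M-CSF (horizontal axis) for the 9 tested members, with the day 6 value as a filled point, the day 3 value as an open point, and the mean of both days as a diamond with its limma standard error, filled where adjusted p was under 0.05. Ptdss2, Selenoi, Pcyt1a and Chpt1 are right of 0 on both days, and Pcyt1a shows the widest gap between days, 1.08 on day 6 against 4.07 on day 3.

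Genes that feed, transport, remodel or break down the same lipids were counted in 7 lists, to be read against the 14.1% of all tested genes that rose and the 12.4% that fell. In the supply of choline, ethanolamine and serine, 4 of 10 tested genes rose with RANKL and 1 fell (list median 1.27). Slc1a5, a carrier of neutral amino acids best known for glutamine, rose by 5.66 (adjusted p = 2.84e-05). The choline transporter Slc44a1 rose by 2.35, the mitochondrial serine hydroxymethyltransferase Shmt2 by 1.93 and the mitochondrial serine carrier Sfxn1 by 1.65, while Slc44a2, a second choline transporter, fell (-1.86). Slc1a5 read 14.17 on day 6 and 14.74 on day 3 in M-CSF+RANKL cells, against 8.05 and 9.54 in M-CSF cells.

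In the list for transport of phosphatidylserine, 3 of 17 rose and 1 fell (median 0.11). Efr3b, a membrane anchor of the kinase complex whose product drives exchange of phosphatidylserine, rose by 3.24, at least 1.49-fold, since both M-CSF signals were within background. Mfn2, a mitofusin that also tethers mitochondria to the endoplasmic reticulum, rose by 3.11, and Prelid3b, which carries phosphatidylserine between mitochondrial membranes towards Pisd, by 1.81. Vps13c, a lipid bridge at contacts of the endoplasmic reticulum with endosomes, fell (-5.25), with signals of 6.47 on day 6 and 6.70 on day 3 in M-CSF+RANKL cells, against 12.14 and 11.53 in M-CSF cells.

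Among lysophospholipid acyltransferases, which reload phospholipids with fatty acids, 2 of 9 rose and 1 fell (median -0.03). Lpcat1 rose by 4.52 (22.9-fold) and Lpcat4 by 2.79 (at least 2.84-fold), and Lpcat2, which also makes platelet-activating factor, fell (-4.18, 18.2-fold lower). In phosphatidic acid and diacylglycerol synthesis, 1 of 13 rose and 1 fell (median -0.06), both acyltransferases that make phosphatidic acid: Agpat4 rose by 4.52 (at least 22.8-fold) and Agpat3 fell (-2.33). In breakdown, 2 of 15 rose and 2 fell (median 0.02). Napepld, which releases N-acylethanolamines from modified phosphatidylethanolamine, rose by 4.53, and Gpcpd1, which splits glycerophosphocholine, by 1.46. Abhd12, a lipase for lysophosphatidylserine, fell (-2.97, at least 7.81-fold lower), as did Gdpd1, a lysophospholipase D (-1.98). By limma, 0 of 3 other head group enzymes and 0 of 8 genes of CDP-diacylglycerol, phosphatidylinositol and cardiolipin synthesis passed, with 0 and 1 of them at an unadjusted p under 0.05.

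**Figure D3:**
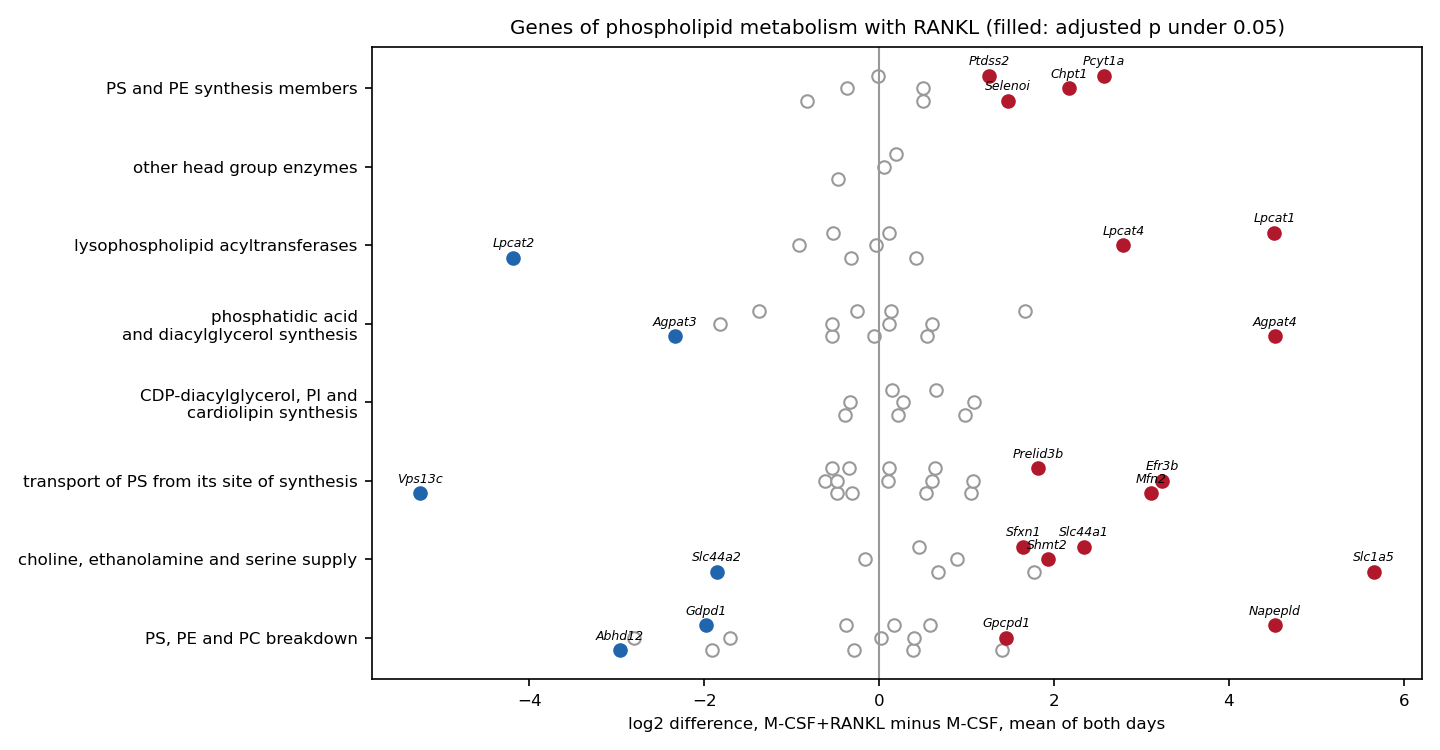
Each point is 1 tested gene, placed by its log2 difference of M-CSF+RANKL minus M-CSF averaged over both days (horizontal axis), in rows for the enzyme members and 7 lists of related lipid genes; filled points had adjusted p under 0.05. The members that passed lie between 1.26 and 2.57, while single genes of other lists reach 5.66 (Slc1a5) and -5.25 (Vps13c).

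The second question was which enzymes changed when cells given RANKL also expressed mutant or wild-type PSS1. Both PSS1 comparisons used the same 2 M-CSF+RANKL arrays as controls, so they are not independent of each other. Ptdss1 rose in both, and no other member passed in either. Of all tested genes, 0.175% passed in the PSS1-LMS comparison and 0.0092% in the PSS1-WT comparison. The PSS1-WT share was Ptdss1 alone, so no other gene passed there.

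Ptdss1 read 17.50 on day 6 and 18.79 on day 3 in PSS1-LMS cells and 18.06 and 18.91 in PSS1-WT cells, against 10.36 and 9.56 in M-CSF+RANKL cells. The summary signal of its cluster cannot separate the vector's transcript from the cells' own, so the level of the cells' own Ptdss1 in the PSS1 cultures is not known. The difference was 8.18 ± 0.37 for PSS1-LMS (291-fold) and 8.53 ± 0.37 for PSS1-WT (369-fold). PSS1-LMS minus PSS1-WT was -0.34 (interval -1.13 to 0.45, adjusted p = 0.882).

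Ptdss2, whose product shares the reaction with PSS1, read 7.62 on day 6 and 7.79 on day 3 in PSS1-LMS cells, 8.07 and 8.26 in PSS1-WT cells, and 8.20 and 8.18 in M-CSF+RANKL cells. Both PSS1-LMS arrays were lower than the other 4 arrays with RANKL. The difference from M-CSF+RANKL was -0.48 in PSS1-LMS cells (interval -1.004 to 0.04, adjusted p = 0.804) and -0.03 in PSS1-WT cells (interval -0.55 to 0.49, adjusted p = 0.991). PSS1-LMS minus PSS1-WT was -0.45 on day 6 and -0.46 on day 3 (interval of the mean -0.97 to 0.07, adjusted p = 0.751), so it did not pass.

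Pcyt2 showed a like order: it read 7.47 on day 6 and 7.51 on day 3 in PSS1-LMS cells, 7.72 and 7.93 in PSS1-WT cells, and 8.17 and 8.09 in M-CSF+RANKL cells. The 3 cultures did not overlap. Pcyt2 differed from M-CSF+RANKL by -0.65 in PSS1-LMS cells (interval -1.17 to -0.12, adjusted p = 0.596) and by -0.31 in PSS1-WT cells (interval -0.83 to 0.22, adjusted p = 0.823), and neither passed.

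Pcyt1a read 11.38 on day 6 and 11.95 on day 3 in PSS1-LMS cells, 11.06 and 11.56 in PSS1-WT cells, and 11.59 and 12.16 in M-CSF+RANKL cells. With the days pooled, both PSS1-WT arrays lay below both M-CSF+RANKL arrays, and PSS1-LMS overlapped each of them. Within each day PSS1-LMS lay between PSS1-WT and M-CSF+RANKL. The difference was -0.22 for PSS1-LMS (adjusted p = 0.986) and -0.57 for PSS1-WT (interval -1.09 to -0.06, adjusted p = 0.680).

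Pisd, which consumes the product of PSS1, read 8.51 on day 6 and 8.90 on day 3 in PSS1-LMS cells, 8.37 and 8.61 in PSS1-WT cells, and 9.09 and 8.48 in M-CSF+RANKL cells. Both PSS1 cultures lay under M-CSF+RANKL on day 6 and above it on day 3. The mean difference was -0.08 in PSS1-LMS cells (interval -0.68 to 0.51) and -0.29 in PSS1-WT cells (interval -0.89 to 0.30).

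None of the 4 remaining enzymes passed in either comparison. Selenoi read 9.38 on day 6 and 9.35 on day 3 in PSS1-LMS cells, and 9.10 and 9.37 in PSS1-WT cells, with differences from M-CSF+RANKL of -0.16 and -0.29. Cept1 read 10.09 and 9.79 in PSS1-LMS cells and 10.07 and 10.10 in PSS1-WT cells on the same days, differences of 0.24 and 0.38. Chpt1 read 10.21 and 9.86 in PSS1-LMS cells and 9.94 and 10.19 in PSS1-WT cells, differences of -0.25 and -0.21. Etnk1, at 7.47 and 6.99 in PSS1-LMS cells and 7.31 and 7.02 in PSS1-WT cells, differed by -0.01 and -0.08. Over the 6 arrays with RANKL these 4 genes spanned between 0.48 (Etnk1) and 0.71 (Chpt1) from lowest to highest. With the days pooled, the 3 cultures overlapped for Selenoi, Chpt1 and Etnk1, while for Cept1 both PSS1-WT arrays lay above both M-CSF+RANKL arrays and PSS1-LMS overlapped each. Within each day Cept1 was lowest in M-CSF+RANKL cells.

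Between PSS1-LMS and PSS1-WT, 0 of 9 members and 0% of all tested genes passed by limma, with 773 genes at an unadjusted p under 0.05. The members' median difference was -0.04, against 0.04 over all genes. With Ptdss1 left out, the median was -0.19 for PSS1-LMS and -0.25 for PSS1-WT against M-CSF+RANKL, where all genes had medians of -0.02 and -0.06. No gene of the 7 lipid lists passed in any of the 3 comparisons. Of the marker lists, the neutrophil marker Mmp8 alone passed, higher by 1.46 in PSS1-LMS than in M-CSF+RANKL cells (adjusted p = 0.0388), and its relation to the enzyme values was not tested. At an unadjusted limma p under 0.05 were 6 of 11 macrophage markers in PSS1-LMS minus PSS1-WT (list median 0.63). Against M-CSF+RANKL there were 5 of 11 in PSS1-LMS cells (median 0.27) and 3 of 11 in PSS1-WT cells (median -0.13). Over all 10871 tested genes the counts were 773, 714 and 746, in the same order. The part of these markers in the enzyme values was not tested.

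**Figure D4:**
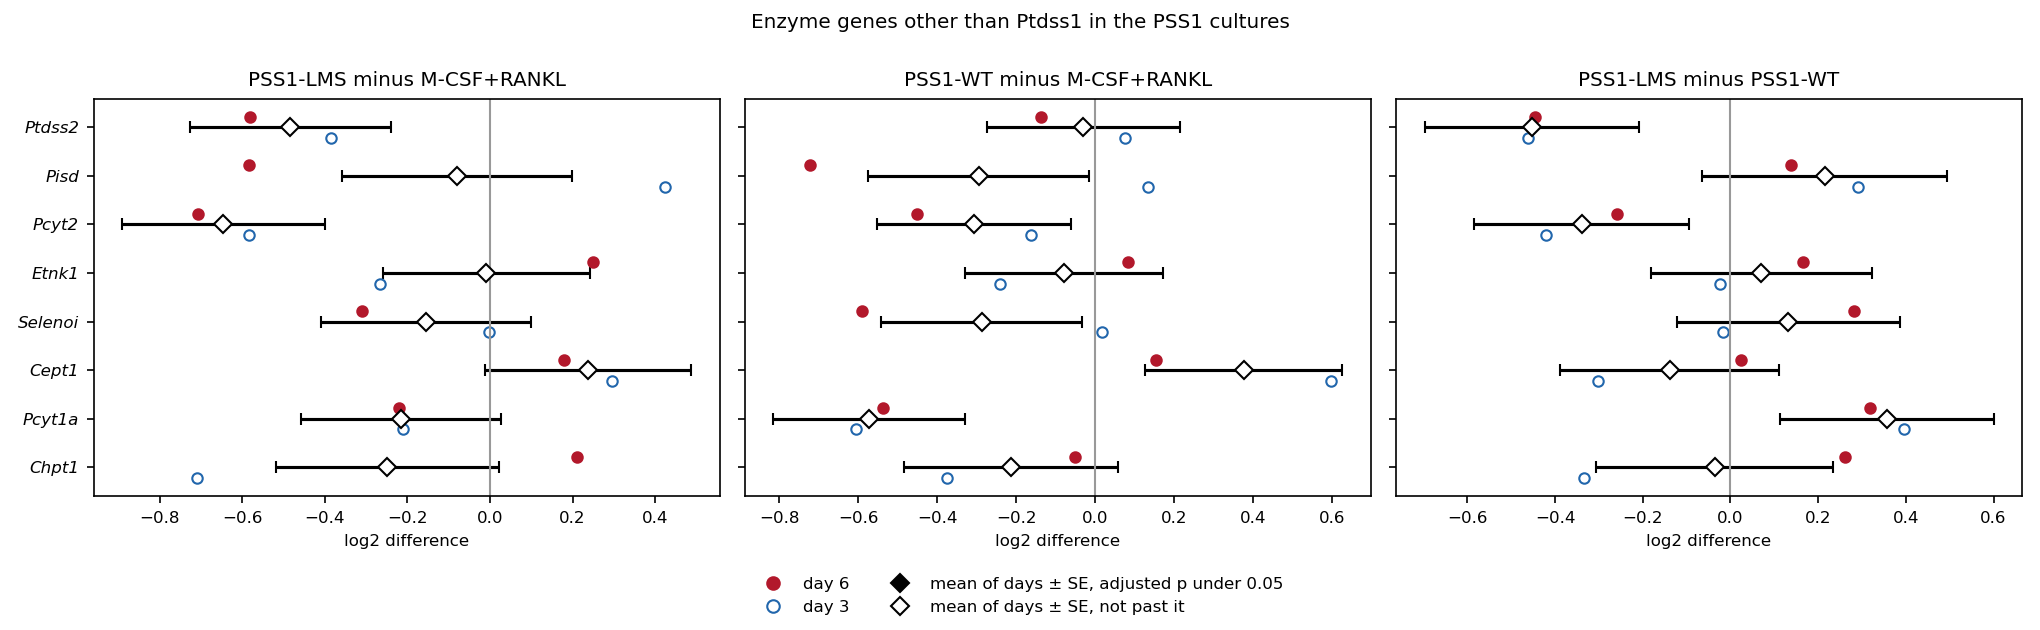
Log2 differences (horizontal axis) of the 8 tested members other than Ptdss1, for PSS1-LMS minus M-CSF+RANKL, PSS1-WT minus M-CSF+RANKL and PSS1-LMS minus PSS1-WT, with filled points for day 6, open points for day 3 and diamonds for the mean of both days with its limma standard error. None of the diamonds had adjusted p under 0.05; Ptdss2 lies at -0.45 on day 6 and -0.46 on day 3 in PSS1-LMS minus PSS1-WT.

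The third question was how the enzymes changed between the days. Averaged over the 4 cultures, no member passed by limma in day 6 minus day 3, where 0.101% of tested genes rose and 0.184% fell (863 genes had an unadjusted p under 0.05). The member differences ran from -0.33 for Ptdss1 to 0.46 for Pisd. For Ptdss1 the cultures did not change one way: day 6 minus day 3 was -1.30 in PSS1-LMS, -0.85 in PSS1-WT, 0.79 in M-CSF+RANKL and 0.02 in M-CSF cells. On day 6 the neutrophil markers were lower, with 7 of 9 fallen and a summed signal of 312 to 3546, against 18876 to 29691 on day 3. Camp, among the fallen, was within background on every array. The highest day 6 sum, in M-CSF cells, was mostly Mmp8 (11.20) and Csf3r (9.96), which did not pass. Psat1, of serine synthesis, was the only gene of the lipid lists that passed, and it fell (-1.81, adjusted p = 0.0339).

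Whether the change between days differed with RANKL was asked after the values had been seen. Day 6 minus day 3 was compared between the 3 cultures with RANKL and the M-CSF culture, and 2 of 9 members passed, both lower with RANKL. Of all tested genes, 12.8% were lower and 9.49% higher in that comparison. Pcyt1a changed by -0.58 in PSS1-LMS, -0.50 in PSS1-WT and -0.57 in M-CSF+RANKL cells, against 2.43 in M-CSF cells. All 3 cultures with RANKL changed alike and apart from M-CSF, and the difference from M-CSF was -2.98 ± 0.40 (adjusted p = 0.000122).

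Pisd changed by -0.39 in PSS1-LMS, -0.24 in PSS1-WT and 0.62 in M-CSF+RANKL cells, against 1.86 in M-CSF cells. The difference was -1.87 ± 0.46 (adjusted p = 0.00864), and it did not pass with low signals raised to 7.13 (adjusted p = 0.128). No Pisd signal was itself raised there, the lowest being 7.35, and the difference stayed the same. Over all alternatives its adjusted p ran from 0.000177 to 0.128. Day changes were also lower with RANKL for 3 of 10 osteoclast, 5 of 11 macrophage and 2 of 9 neutrophil markers. The same held for 1 of 1 T and NK cell and 1 of 4 dendritic cell markers tested. Of all these, Nfatc1, Adgre1, C1qc and Mrc1 alone were above background on every array. Acp5 was within background on both M-CSF arrays and Mertk on all 6 arrays with RANKL. A lower change is not a lower level, and the part of these markers in the enzyme values was not tested. Ptdss2 (-0.91, adjusted p = 0.115) and Pcyt2 (-0.96, adjusted p = 0.0996) did not pass. The M-CSF change rests on 1 array per day, and the test assumes that it varies like the cultures with RANKL.

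**Figure D5:**
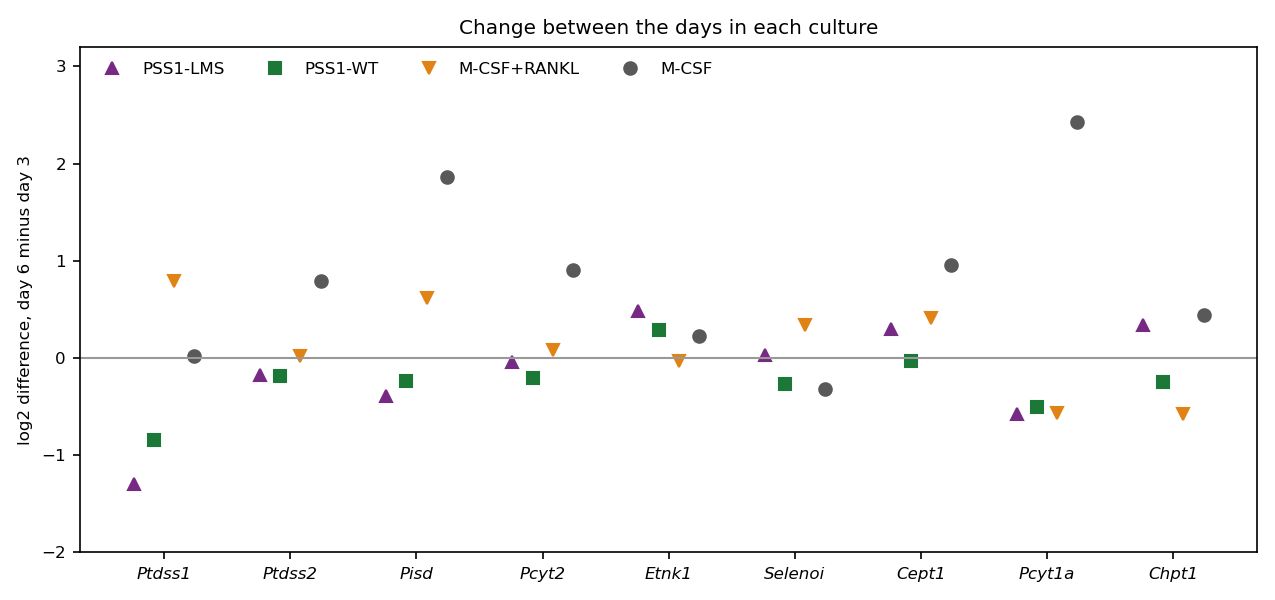
Day 6 minus day 3 in log2 units (vertical axis) for the 9 tested members in the PSS1-LMS, PSS1-WT, M-CSF+RANKL and M-CSF cultures, 1 symbol per culture, with no error since each is 1 array per day. Pcyt1a lies at 2.43 in M-CSF cells and between -0.58 and -0.50 in the 3 cultures with RANKL.

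The genes most like Ptdss1, Ptdss2 and Pisd over the 8 arrays were found by the root mean square difference of log2 signals after each gene was centred on its own mean. For Ptdss2 these were Mbtps1, a protease that cleaves sterol-regulated transcription factors (0.114, Pearson r 0.987), and Ccdc91 (0.130, r 0.983). For Pisd they were Bnip3l, a receptor for mitophagy (0.149, r 0.973), and Ncstn, a subunit of gamma-secretase (0.156, r 0.966). No gene came near Ptdss1, for which the closest were Flrt2 (3.10, r 0.740) and Btbd11 (3.32, r 0.603). The Ptdss1 profile includes the vector's signal on the PSS1 arrays, so its distances do not describe the cells' own gene. These are descriptions over 8 arrays that share their cultures, picked as the closest of all tested genes.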

How the data were processed

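Total RNA was labelled from 500 ng per sample and hybridised to 8 Affymetrix arrays, per the labels' protocols, 1 for each of 4 cultures and 2 days. The deposited values are log2 signals per transcript cluster, a scale inferred from their range. How the authors combined probes and scaled the arrays was not given in the sources used here, and the values were used unchanged.

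Gene symbols came from GEO's platform annotation, with the cluster of highest mean taken for a gene with several. A gene was tested where the highest of its 8 signals reached 4.86, the 50th percentile of the table. Culture and day were additive terms in limma 3.58.1 (R 4.3.3, lmFit and eBayes), with Benjamini-Hochberg adjustment over 10871 genes and a threshold of 0.05. The RANKL and day fits used 8 arrays (3 residual degrees of freedom, 4.71 pooled over genes), and the PSS1 fits the 6 arrays with RANKL (2 and 13.3). The error is how far a difference changed between days, not spread over animals or replicate cultures. The number of arrays limits the precision. The comparison of the day change between cultures with and without RANKL was chosen after seeing the data. The calculation was tested on simulated data.

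All 10 members are named, and of each other list the 4 genes with the largest difference among those that passed, or all where 5 or fewer passed. The members and lists were chosen with earlier results of these data known. A fold is "at least" where a low signal lay within background, whose brightest probe set then took its place. Promoters and gene positions are RefSeq's, build GRCm38.p6. The alternatives were other filters, scalings, a floor on low signals, the mean over clusters, a variance trend, other array sets, and leaving out each array. List genes Etnk2 and Phospho1 were not analysed here.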

Additional observations from a re-analysis of the deposited data

Results flagged for a closer look

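For 14 pairs of an enzyme and a comparison, the difference had opposite signs on the 2 days; each side is 1 array a day, and the difference between days was not tested. In M-CSF+RANKL minus M-CSF, these were Ptdss1 (0.022 on day 6, -0.75 on day 3), Pisd (-0.12 and 1.13) and Etnk1 (-0.14 and 0.12). In PSS1-WT minus M-CSF+RANKL they were Ptdss2 (-0.14 on day 6, 0.076 on day 3), Pisd (-0.72 and 0.13), Etnk1 (0.083 and -0.24) and Selenoi (-0.59 and 0.016). In PSS1-LMS minus M-CSF+RANKL they were Pisd (-0.58 on day 6, 0.42 on day 3), Etnk1 (0.25 and -0.27) and Chpt1 (0.21 and -0.71). In PSS1-LMS minus PSS1-WT they were Etnk1 (0.17 on day 6, -0.025 on day 3), Selenoi (0.28 and -0.018), Cept1 (0.025 and -0.30) and Chpt1 (0.26 and -0.33). Pisd appears in the 3 comparisons that use the M-CSF+RANKL arrays.

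For 2 enzymes the change between days differed between the cultures with RANKL and the M-CSF culture by the limma test of that difference. Pcyt1a differed by -2.98 (adjusted p = 0.000122) and Pisd by -1.87 (adjusted p = 0.00864); in both, the M-CSF culture was higher on day 6 than on day 3, while the mean of the 3 cultures with RANKL was -0.55 for Pcyt1a and -0.01 for Pisd.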

How the results depend on the processing

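Each culture and day is 1 array, so the p-values measure how far differences changed between days, and the Ptdss2 signals of M-CSF cells, just above background, bound how low that gene could read. Cultures were compared within each day through the day term. That term matches the arrays of a day. No pairing beyond the day was possible, because each culture and day is 1 array, with no replicate numbers to block on. Of the member differences, 433 kept their direction and side of the threshold under other settings, 4 lost their call and 13 changed sign; without 1 array, 301 kept both, 13 lost and 3 gained a call, and 43 changed sign. No member that changed sign was called on either side, and the cause of the changes was not tested. The rise of Ptdss1 in both PSS1 cultures passed under every alternative run.

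With RANKL, the members called were 2 with only the cultures compared, against 4, where Ptdss2 and Selenoi were lost. Raising low signals to 7.13 lost Pcyt1a (adjusted p = 0.0824). No Pcyt1a signal was itself raised, the lowest being 8.09, and its difference stayed at 2.57. Only the error pooled over genes and the adjustment changed for it. Etnk1 changed sign with arrays centred on their medians (0.028) and with quantile normalisation (0.012). Without 1 array, genes called ran from 1198 to 4545 (2875 with all arrays), members called from 1 to 6, Ptdss1 from -1.11 to 0.39, Pisd from -0.43 to 1.44 and Etnk1 from -0.19 to 0.18.

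For PSS1-LMS minus M-CSF+RANKL, genes called were 2 with no filter, 37 with the filter at background, 1 with quantile normalisation, with low signals raised and with all 8 arrays, 43 with a variance trend and 59 with only the cultures compared, against 19. Etnk1 changed sign to 0.0091 with centring and 0.060 with low signals raised. Without 1 array, genes called ran from 11 to 83, Pisd from -0.55 to 0.39, Etnk1 from -0.22 to 0.20, Selenoi from -0.38 to 0.073 and Chpt1 from -0.63 to 0.13. For PSS1-WT minus M-CSF+RANKL, genes called were 2 with the filter at background, 2 with a variance trend and 18 with only the cultures compared, against 1, and Ptdss2 changed sign to 0.021 with quantile normalisation. Without 1 array, genes called ran from 3 to 61, Ptdss2 from -0.13 to 0.072, Pisd from -0.76 to 0.17, Etnk1 from -0.29 to 0.13 and Chpt1 from -0.53 to 0.099. For PSS1-LMS minus PSS1-WT, genes called were 8 with the filter at background, 7 with a variance trend and 36 with only the cultures compared, against 0, and Chpt1 changed sign to 0.019 with centring. Without 1 array, genes called ran from 0 to 48, Ptdss1 from -0.98 to 0.29, Pisd from -0.075 to 0.50, Etnk1 from -0.11 to 0.25, Selenoi from -0.095 to 0.36, Cept1 from -0.33 to 0.054 and Chpt1 from -0.42 to 0.34. In each of these, the members called did not change.

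For day 6 minus day 3, genes called were 20 with the filter at background, 6 with low signals raised and 367 with only the 6 arrays with RANKL, against 31; centring gave 7 higher and 21 lower, against 11 and 20. Ptdss2 was -0.035 with low signals raised. With only the arrays with RANKL, Ptdss2 was -0.11, Pisd -0.0051, Pcyt2 -0.055, Selenoi 0.031 and Pcyt1a -0.55. Without 1 array, genes called ran from 10 to 367, Ptdss2 from -0.11 to 0.21, Pisd from -0.0051 to 0.75, Pcyt2 from -0.055 to 0.31, Selenoi from -0.19 to 0.031, Pcyt1a from -0.55 to 0.45 and Chpt1 from -0.16 to 0.18. For the day change with against without RANKL, low signals raised gave 1433 genes and 1 member, against 2425 and 2, and Etnk1 at -0.064; without 1 array Etnk1 ran from -0.098 to 0.16.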

Other observations

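Related lipid genes also differed in their change between days when the 3 cultures with RANKL were set against M-CSF, the comparison chosen after seeing the data. In breakdown, 3 of 15 genes were higher and 6 lower by limma, against 9.49% and 12.8% of all tested genes. The lysosomal phospholipase Pla2g15 had the most negative value (-3.89), with signals of 9.96 on day 6 and 9.41 on day 3 in M-CSF+RANKL cells, against 14.50 and 10.47 in M-CSF cells. Pnpla7, a lysophospholipase, differed by -3.47, and Abhd4, which acts on N-acylated phosphatidylethanolamine, by -3.10. Pla2g4a, the cytosolic phospholipase A2, had a higher day change with RANKL (2.29) but not a higher level. It read 8.35 on day 6 and 7.63 on day 3 in M-CSF+RANKL cells, against 8.83 and 10.57 in M-CSF cells.

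In phosphatidic acid and diacylglycerol synthesis, 1 of 13 was higher (Agpat5, 3.09) and 5 lower. The lipins Lpin1 and Lpin2 (-2.53), which turn phosphatidic acid into the diacylglycerol that Selenoi, Cept1 and Chpt1 use, were among the lower ones, as was the kinase Dgka (-2.39), which runs that step backwards. Lpin1 read 7.37 on day 6 and 7.17 on day 3 in M-CSF+RANKL cells, against 9.55 and 6.06 in M-CSF cells, where the day 3 signal was within background, so the size of its difference is not given.

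In supply, 1 of 10 was higher (Sfxn1, 1.71) and 2 lower, Slc44a2 (-1.68) and Phgdh, the first enzyme of serine synthesis. Phgdh read 4.42 on day 6 and 7.05 on day 3 in M-CSF+RANKL cells, and 4.04 and 3.90 in M-CSF cells. It was within background on both M-CSF arrays and on all 3 day 6 arrays with RANKL, so no size is given. Among acyltransferases, 1 of 9 was higher (Lpcat4, within background on 1 M-CSF array) and 3 lower: Mboat7 (-2.21), Lpcat2 (-1.50) and Lpcat3 (-1.42). In CDP-diacylglycerol, phosphatidylinositol and cardiolipin synthesis, 2 of 8 were higher and 2 lower. Ptpmt1 (1.41) and Cds2 (-1.22) were above background on all arrays, while Pgs1, higher, was within background on 1 M-CSF array and 1 array with RANKL, and Taz, the tafazzin of cardiolipin remodelling, lower, on 1 M-CSF array. In transport, 0 of 17 were higher and 2 lower, Mfn2 (-1.69) and Ttc7, which was within background on both M-CSF arrays. Of 3 other head group enzymes, Sgpl1, the sphingosine phosphate lyase that yields phosphoethanolamine, was lower (-1.27). Each M-CSF change is 1 array per day.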
